A study of Drosophila melanogaster with 2 samples.

Results

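This account covers 7 genes that mark or direct cell fate in the adult fly midgut, and the places in and around them where a Capicua-GFP fusion was found on chromatin. The genes are esg, Sox21a, Sox100B, pros, nub, zfh2 and Myo31DF, taken by symbol out of 13945 protein-coding genes on the 6 major chromosome arms. A summit, the point of highest signal in a peak, was assigned to a gene when it lay in the gene body or within 10 kb of any of its transcript starts, and this stretch is called the gene's territory. By that rule the 7 genes held 11 of the 7152 summits of the thresholded peak list. The rule that assigns summits uses the names and positions of the genes and no peak score.

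The chromatin came from whole adult Drosophila melanogaster of the strain cic-GFP, a stable transgenic line in which Capicua (cic) carries GFP at its C-terminus. Males and females were pooled and their age is recorded as unknown. An anti-GFP antibody was used for chromatin immunoprecipitation and sequencing (ChIP-seq) of 2 biological replicates, numbered 1 and 3, which form the only group; no untreated, mutant or tagless flies were analysed here as samples. Whole flies were used, so midgut cells gave an unknown part of the chromatin, and every value below is an average over all tissues in which the fusion was present. How the flies of each replicate were grown and collected is not in the labels, and the difference between replicates may therefore include technical variation.

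Capicua is a repressor with an HMG box that keeps target genes off until receptor tyrosine kinase and ERK signalling relieves it. In the adult midgut, intestinal stem cells divide to give enteroblasts, which become absorptive enterocytes, and progenitors that become hormone-secreting enteroendocrine cells. Capicua is known in this tissue for restraining the division of stem cells downstream of the epidermal growth factor receptor. Its HMG box prefers octamers of the form TGAATGAA or TGAATGGA. Among the 7 genes, esg encodes a Snail-family repressor that keeps stem cells and enteroblasts undifferentiated. Sox21a and Sox100B encode Sox-family HMG-box factors of the same progenitors. The gene pros encodes the homeodomain factor of enteroendocrine cells, nub a POU-domain factor of enterocytes, and zfh2 a zinc-finger homeodomain factor linked to the early steps from enteroblast to enterocyte. Myo31DF encodes an unconventional myosin, and an enhancer trap in it is a standard enterocyte marker.

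The sequences on which the description turns are given first, from the RefSeq Release 6 genome, which is dm6, on the plus strand. They cover 100 bp on each side of a summit of the thresholded list, and 50 bp on each side of the relaxed summit at Sox21a and of the middle of the pros run. Capitals mark every match on either strand to the preferred octamers, to the related octamers TCAATGAA and TCAATGGA, or to one of 5 further motifs. The first of these is GATAAG, bound by GATA factors. The next is GAGAGAG, bound by the factor Trl. Snail-family factors such as Esg bind CAGGTG. The E-box CACGTG is bound by many basic helix-loop-helix factors. The Sox core is ACAATG. Sox21a and pros are shown for the octamers that Capicua prefers, Sox100B and zfh2 for their single summits of the thresholded list, nub for its strongest summit, and Myo31DF for the summit in its intron.
Sox21a, relaxed summit, chr3L:14111618-14111718: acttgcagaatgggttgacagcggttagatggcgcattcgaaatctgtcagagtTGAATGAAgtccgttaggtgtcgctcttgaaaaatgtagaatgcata
pros, intronic run of octamers, chr3R:11355342-11355442: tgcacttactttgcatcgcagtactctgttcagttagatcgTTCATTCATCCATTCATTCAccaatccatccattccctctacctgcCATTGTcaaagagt
Sox100B, upstream summit, chr3R:31059047-31059247: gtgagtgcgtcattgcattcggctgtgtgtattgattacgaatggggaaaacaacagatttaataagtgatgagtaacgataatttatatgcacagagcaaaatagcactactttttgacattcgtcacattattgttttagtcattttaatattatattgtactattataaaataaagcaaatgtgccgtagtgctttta
zfh2, upstream summit, chr4:497807-498007: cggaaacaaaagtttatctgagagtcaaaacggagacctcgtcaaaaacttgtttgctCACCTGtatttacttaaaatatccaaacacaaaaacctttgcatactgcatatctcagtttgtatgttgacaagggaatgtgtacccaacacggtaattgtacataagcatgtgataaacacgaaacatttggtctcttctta
nub, strongest summit, chr2L:12619955-12620155: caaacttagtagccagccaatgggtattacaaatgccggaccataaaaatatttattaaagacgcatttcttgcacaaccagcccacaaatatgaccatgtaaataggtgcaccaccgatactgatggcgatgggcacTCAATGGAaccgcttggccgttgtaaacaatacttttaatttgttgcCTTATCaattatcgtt
Myo31DF, intronic summit, chr2L:10502287-10502487: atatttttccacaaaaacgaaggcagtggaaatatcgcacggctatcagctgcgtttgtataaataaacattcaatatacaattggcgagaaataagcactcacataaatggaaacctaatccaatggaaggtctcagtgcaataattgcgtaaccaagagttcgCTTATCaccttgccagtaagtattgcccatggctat
In the Sox21a window the capitals are 1 copy of TGAATGAA. In the pros window they are 3 octamers within 20 bp, read on the minus strand, the last pair of which overlap, followed by 1 ACAATG. The Sox100B window holds no match. The zfh2 window holds 1 CAGGTG on the minus strand, the nub window TCAATGGA and a GATAAG on the minus strand, and the Myo31DF window a GATAAG on the minus strand.

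The authors' peak score was used as the strength of a summit. It has no stated unit, runs from 116 to 3067 in the thresholded list with a median of 180, and cannot be turned into reads, so depth is unknown. That list is the 7152 highest-scoring entries of the 30000 in the pooled relaxed list, and the score in the pooled list is close to the sum of both replicate scores, with a median ratio of 1.02. Both replicates had an overlapping peak for 7122 of the 7152 entries (99.6%). The log2 ratio of replicate 3 to replicate 1 scores had a median of 0.09 over those entries, and its middle 95% lay between −0.91 and 1.10. Each replicate's own relaxed list and the pooled one hold 30000 entries and reach far down into weak signal.

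Capicua-GFP was found at 4 of the 7 genes in the thresholded list. Myo31DF had 5 summits, nub 4, and Sox100B and zfh2 had 1 each, while esg, Sox21a and pros had none. By the same rule 9006 of all 13945 protein-coding genes (64.6%) had at least 1 summit, so the count at the 7 genes was near the share of all genes. Within 1 kb of a transcript start, 1 of the 7 genes had a summit, Myo31DF, against 30.5% of all genes. In the pooled relaxed list all 7 genes had a summit, against 89.1% of all genes.

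The summits at these genes ranked low in the list. The 11 scores had a median of 141 and lay between 116 and 266, and 3 of the 11 were above the list's median of 180. The strongest summit of each gene scored 266 at nub, 230 at Sox100B, 204 at Myo31DF and 127 at zfh2, beside a median of 246 for the strongest summit over all genes that had one. Only nub was above that median. Of the 11 summits, 6 lay in the body of the gene and 7 had the gene's own transcript start as their nearest start.

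**Figure D1:**
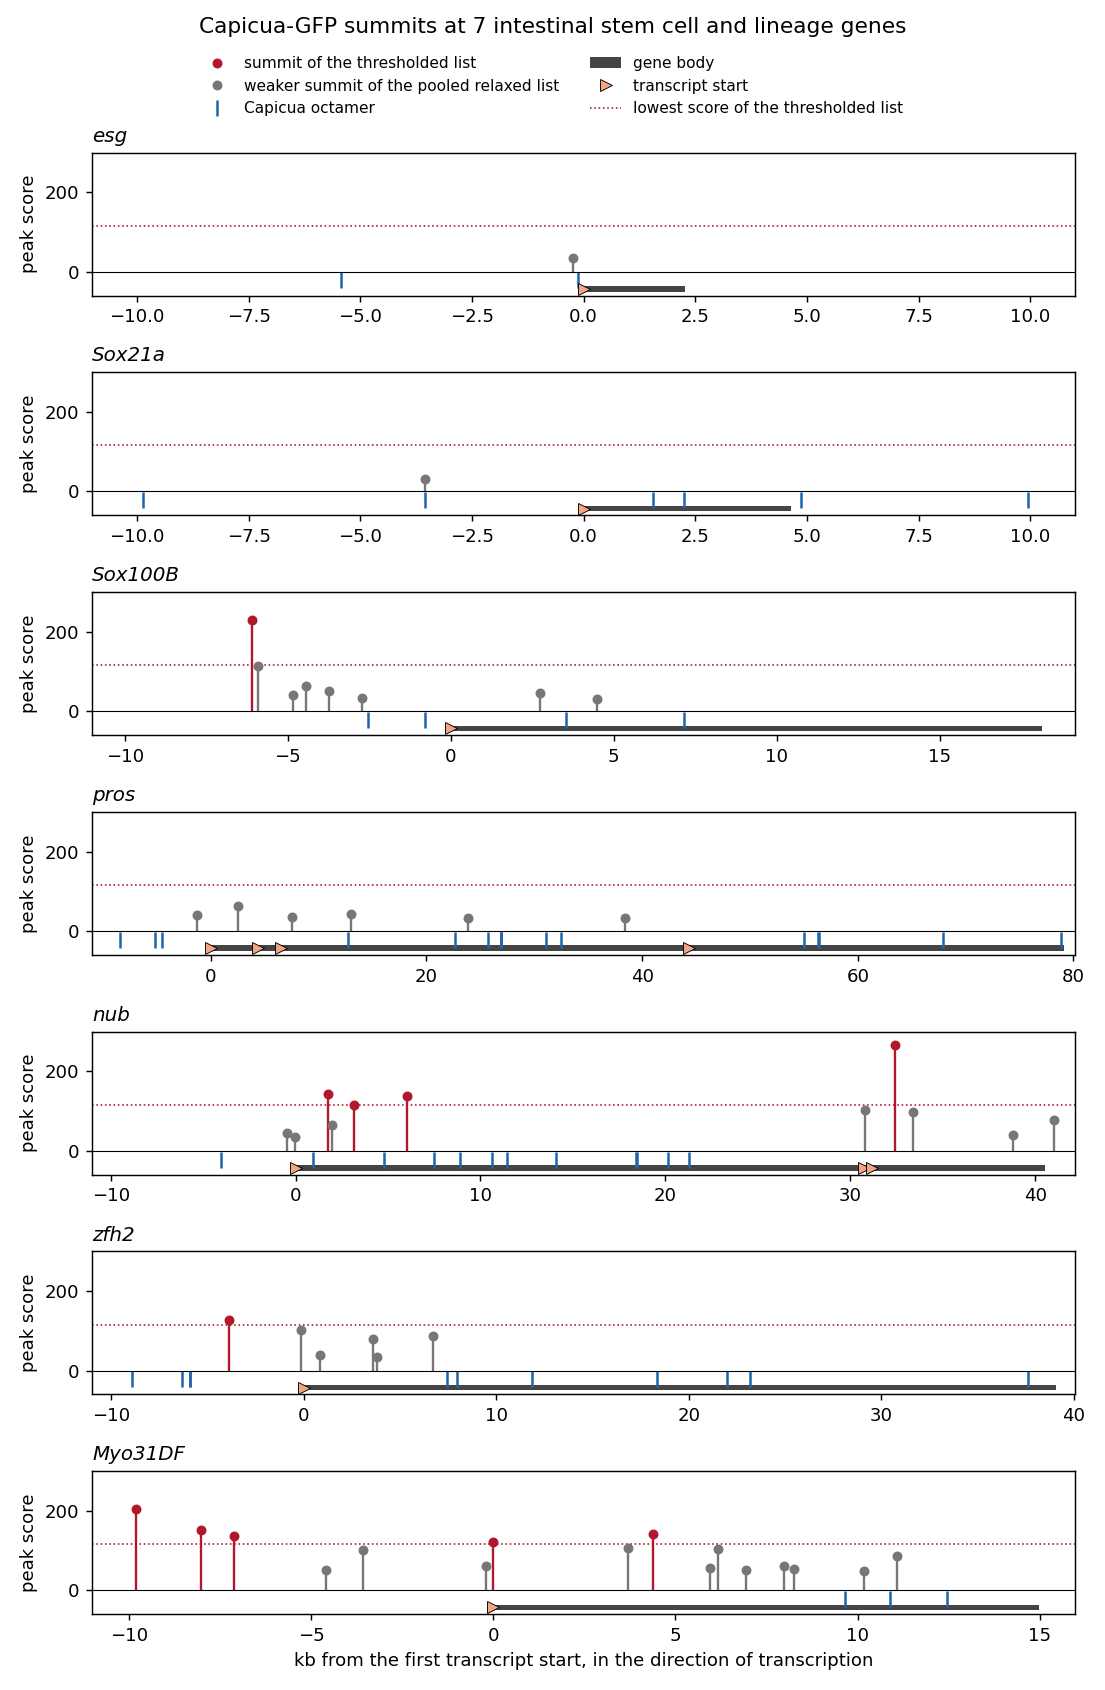
Each panel is 1 gene. The horizontal axis gives kb from the first transcript start in the direction of transcription, and the vertical axis the authors' peak score. Red pins are summits of the thresholded list, grey pins weaker summits of the pooled relaxed list, blue ticks the octamers TGAATGAA and TGAATGGA, and the dotted line the lowest score of the thresholded list. Of the 4 red pins of nub, 3 follow its first start and 1 follows all of its starts, 3 of the 5 of Myo31DF lie beyond 7 kb upstream, and no red pin stands on a blue tick.

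The stem cell and enteroblast genes come first. esg lies on chromosome arm 2L at 15333866 to 15336138, plus strand, and its territory spans 20001 bp. That is the median length over all genes and also the shortest, since all 13945 genes have a territory at least as long. No summit of the thresholded list fell there, and the nearest one was 59.4 kb away, with a score of 121 and UK114 as the gene of its nearest start. The pooled relaxed list held 1 summit at esg, 244 bp upstream of its start, with a score of 33.9 and rank 26857 of 30000. Neither replicate list had an overlapping peak there, and neither had any summit in the territory. The esg territory contained 2 octamers, 1 of them 124 bp from that weak summit.

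Sox21a lies on 3L at 14103481 to 14108118, minus strand, also with a territory of 20001 bp. It too had no summit in the thresholded list, and the nearest, near a start of Frl, scored 186 and was 50.2 kb from the gene body. Its 1 relaxed summit, 3550 bp upstream, ranked 29683 of 30000 with a score of 31.0. Replicate 1 had an overlapping peak with a score of 23.9, and replicate 3 had none. The octamer TGAATGAA printed above lies at 14111672 to 14111679 on 3L, 7 bp from that summit. Of the 54 octamers in the 7 territories it was the single one within 100 bp of any summit of the pooled relaxed list, and the peak over it was among the weakest of that list. The 7 territories held 49 relaxed summits. The share over all relaxed summits was not computed. Windows of that width 1000 bp beside the thresholded summits had an octamer in 2.80% of cases, so a single match is no sign of a preference. The Sox21a territory held 6 octamers.

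Sox100B lies on 3R at 31065253 to 31083407, plus strand, with a territory of 28.2 kb. It had 1 summit in the thresholded list, at 31059147, with a score of 230 and rank 2286 of 7152. That summit is 6106 bp upstream of the Sox100B start and lies in an intron of dco, the casein kinase gene discs overgrown, whose own start is nearer at 1626 bp. The overlapping replicate peaks scored 82.1 in replicate 1 and 149 in replicate 3, a mean of 115.5 ± 47.3 (SD, n = 2). Replicate 3 placed its summit at 31059141 and replicate 1 at 31059264, so the stronger replicate matched the listed position more closely. The log2 ratio of replicate 3 to replicate 1 was 0.86, inside the middle 95% of the list. The window printed above is 31.3% G and C, the lowest of the 11, beside a median of 43.3% over the list. A further summit at 31059352 had a score of 114 and fell just outside the thresholded list, whose lowest score was 116. It was matched to the same replicate peaks, and the replicate 1 summit lies closer to it than to the listed one. The replicate scores above may therefore be of different positions. The pooled relaxed list held 8 summits in the territory, of which those in the body of Sox100B had scores of 45.5 and 31.9. The replicates had 5 summits each, and 4 of each 5 overlapped a summit of the other.

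The enteroendocrine factor pros was the largest of the 7 genes and had no summit in the thresholded list. It lies on 3R at 11328480 to 11407627, plus strand, with 4 transcript starts and a territory of 89.1 kb. Of the 138 genes with a territory at least as long, 57.2% had a summit, with a median of 1. The nearest summit of the list lay 2343 bp beyond the 3′ end of pros, with a score of 120 and Irbp as the gene of its nearest start. The pooled relaxed list held 6 summits, with scores between 32.1 and 62.0. The highest, at 11331007, lies in an intron 1871 bp upstream of the second start and ranked 14655 of 30000. Its overlapping peaks scored 29.5 in replicate 1 and 33.7 in replicate 3, so this weak peak was seen in both. Replicate 1 had 7 summits in the territory, of which 3 (42.9%) overlapped a peak of replicate 3, and replicate 3 had 10, of which also 3 overlapped a peak of replicate 1. Over the whole lists these shares were 76.9% and 76.4%. Those shares include much stronger peaks, since the best pros summit ranked 16670 of 30000 in replicate 1 and 14799 in replicate 3. A share at like ranks was not computed. The territory, the longest of the 7, held 16 octamers, which is 17.9 per 100 kb, below the 23.5 at nub and the 22.4 at zfh2. None lay within 100 bp of a summit in either list. The run of 3 octamers printed above spans 11355383 to 11355402 in an intron and was picked out after its position was seen. The nearest summit of the pooled relaxed list was 3071 bp from it.

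Most of the 11 summits were counted at the enterocyte genes nub and Myo31DF, with 4 and 5. By nearest start, only 2 of the 5 at Myo31DF belong to it. Territories differ in length and the chromatin came from whole flies, so these counts do not compare cell types. Such a difference was not tested. nub lies on 2L at 12587625 to 12628135, plus strand, and its 3 transcripts start at 12587625, 12618345 and 12618783, which gives a territory of 51.2 kb. It had 4 summits, and 22.1% of all genes had as many or more. All 4 were in the gene body and nearest to a nub start. The strongest, at 12620055, scored 266 and ranked 1738 of 7152. It is 1272 bp downstream of the last start, in an intron of nub that also lies within the overlapping gene Ref2. Replicate 1 gave 136 and replicate 3 gave 139 there, a mean of 137 ± 2.13 (SD, n = 2). The replicates differed little at this summit, which was the strongest of the 11.

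The other nub summits followed the first start. At 12589365, 1740 bp downstream in an intron, the score was 144, with 73.9 in replicate 1 and 76.1 in replicate 3 (mean 75.0 ± 1.52, SD, n = 2). At 12590808, 3183 bp downstream in an intron, it was 116, with 60.9 in replicate 1 and 57.6 in replicate 3 (mean 59.3 ± 2.34, SD, n = 2). The replicate 1 value there is of an overlapping peak with its summit at 12590643. A closer replicate 1 summit, at 12590847, scored 51.4. At 12593661, 6036 bp downstream in an annotated 5′ UTR exon, it was 139, with 62.7 in replicate 1 and 75.5 in replicate 3 (mean 69.1 ± 9.06, SD, n = 2). The summit at 12590808 ranked 7137 of 7152 and was therefore just inside the threshold, and it was the only one of the 4 with an E-box CACGTG within 100 bp. A summit 95 bp from the middle start scored 102 in the pooled list and fell outside the threshold, with 53.2 in replicate 1 and 53.4 in replicate 3. In the relaxed lists the replicates had 12 and 13 summits at nub; all 12 of replicate 1 overlapped a peak of replicate 3, and 9 of the 13 of replicate 3 (69.2%) overlapped a peak of replicate 1. With replicate 3 alone the count was also 4, with a summit at 12621009 in place of the one at 12590808. The territory held 12 octamers, and the closest was 814 bp from a summit.

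zfh2 lies on chromosome 4 at 501810 to 540874, plus strand, with 3 transcripts from 1 start and a territory of 49.1 kb. Its single summit, at 497907, is 3903 bp upstream in sequence with no annotated gene over it, and zfh2 has the nearest start. The score was 127, rank 6231 of 7152. Replicate 1 gave 33.0 there, at rank 14738 of its own list, and replicate 3 gave 94.6, at rank 3747, a mean of 63.8 ± 43.6 (SD, n = 2). Replicate 3 was thus 2.87 times replicate 1, a log2 ratio of 1.52, and 47 of the 7122 entries matched in both replicates (0.660%) had a ratio as high. Of the 11 summits this was the one with the most unequal replicate scores.

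A promoter summit of zfh2 showed the opposite order. At 501649, 161 bp upstream of the start, the pooled score was 102, below the threshold, with 64.2 in replicate 1 and 37.0 in replicate 3. When the 7152 strongest entries of 1 replicate were taken in place of the thresholded list, replicate 3 alone gave the upstream summit and replicate 1 alone gave the promoter summit. zfh2 thus had 1 summit in each case, but not the same one. The pooled relaxed list held 6 summits, of which those in the gene body scored between 35.1 and 87.6. Chromosome 4 held 23 summits of the thresholded list, and the zfh2 summit ranked 19 among them; 32 of its 80 protein-coding genes (40.0%) had a summit.

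Myo31DF lies on 2L at 10491814 to 10506779, minus strand, with 3 transcripts from 1 start and a territory of 25.0 kb. It had 5 summits, and 14.5% of all genes had as many or more. The summit at 10506776 lies 3 bp inside the transcript start and scored 121, with 54.5 in replicate 1 and 69.8 in replicate 3 (mean 62.2 ± 10.8, SD, n = 2). It was the only 1 of the 11 within 1 kb of a start of its gene, and a non-coding antisense gene, asRNA:CR44224, also covers the position. The intronic summit at 10502387, 4392 bp downstream, scored 141, with 55.01 in replicate 1 and 95.8 in replicate 3 (mean 75.4 ± 28.8, SD, n = 2).

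The remaining 3 summits of Myo31DF lay upstream, inside Fatp1, a gene for a fatty acid transport protein, and had the Fatp1 start as their nearest. At 10513889, 7110 bp upstream of the Myo31DF start, the score was 137, with 68.4 in replicate 1 and 73.7 in replicate 3. At 10514797, 8018 bp upstream, it was 152, with 79.6 in replicate 1 and 76.6 in replicate 3. At 10516574, 9795 bp upstream, it was 204, with 86.0 in replicate 1 and 118 in replicate 3. This strongest one is 94 bp from the start of Fatp1, in a coding exon, so 3 of the 5 summits counted for Myo31DF are nearer to another gene. The pooled relaxed list held 16 summits in the territory, the most of the 7 genes by the territory rule. Most of the 16 had the start of CG13144, CG6094, CG7384 or Fatp1 as their nearest. By nearest start nub had more, since all 11 of its relaxed summits were nearest to a nub start. Of the replicates' own summits in the Myo31DF territory, 17 of 18 in replicate 1 (94.4%) and 14 of 15 in replicate 3 (93.3%) overlapped a peak of the other. With replicate 1 alone the count was also 5, but the summits at the start and at 10502387 gave way to others at 10503083 and 10510346.

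**Figure D2:**
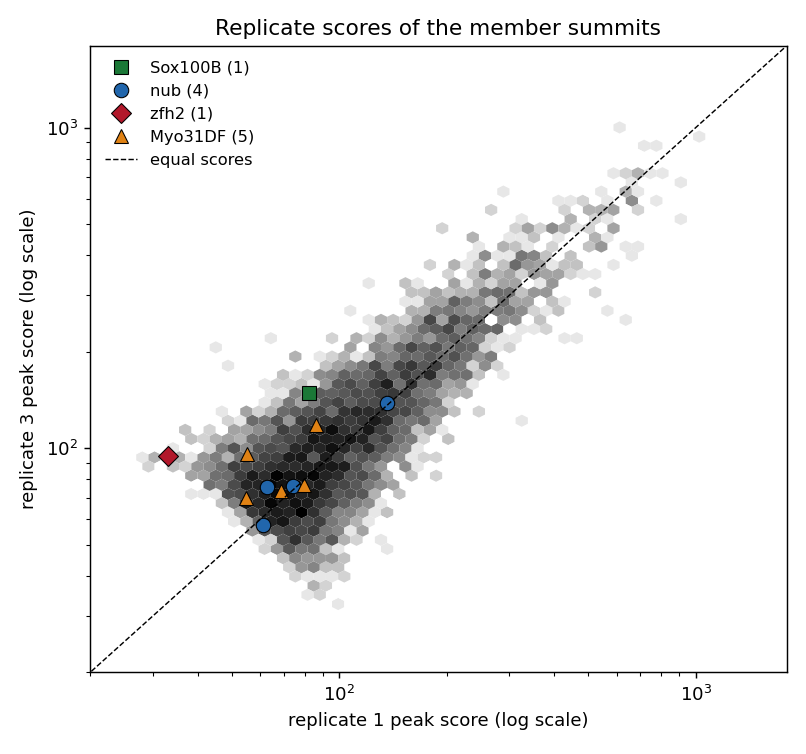
The horizontal axis is the replicate 1 peak score and the vertical axis the replicate 3 peak score, both on log scales, for entries of the thresholded list matched in both replicates. Grey hexagons hold all 7122 entries, darker where there are more, coloured symbols the 11 summits at the 7 genes, and the dashed line equal scores. The 4 nub summits lie near the line, and the zfh2 summit, at 33.0 and 94.6, lies at the upper left edge.

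Over the 11 summits, the replicates differed most at zfh2, Sox100B and the intronic summit of Myo31DF, in each case with replicate 3 higher. With 2 replicates in 1 group no test of these differences was possible. The whole list had nearly equal medians, 98.3 in replicate 1 and 106 in replicate 3.

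None of the 11 summits had TGAATGAA or TGAATGGA within 100 bp, against 374 of the 7152 summits of the list (5.23%). The 3 counts that a zero allows would be 27.3% of 11 summits, so a share like that of the whole list could not have been told from none here. In windows of the same width 1000 bp to either side of the list's summits the share was 2.80%. The 54 octamers in the 282 kb of the 7 territories came to 19.1 per 100 kb, beside 13.6 per 100 kb over the 6 arms. None of them lay within 100 bp of a summit of the thresholded list.

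The related octamers and the other motifs were each found at 3 or fewer of the 11 summits. TCAATGAA occurred at 1 of the 11 summits, the Myo31DF start, against 1.78% of all summits, and TCAATGGA at 1, the strongest nub summit, against 1.27%. With the preferred octamers added, 2 of the 11 summits had 1 of the 4 octamers, against 8.10% of all summits. GATAAG, the sequence that GATA factors bind, occurred at 3 of the 11 (the strongest nub summit and 2 at Myo31DF), against 24.6% of all summits and 11.5% of the flanking windows. CAGGTG occurred at 2, the zfh2 summit and the Myo31DF start, against 7.73% of all summits and 8.90% of the flanks. CACGTG occurred at 1 against 4.10% of all summits, ACAATG at 1, the summit near the Fatp1 start, against 11.03%, and GAGAGAG at none of the 11 against 9.27%. A match is only a stretch of letters, and no test was made on 11 summits.

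A wider list of 48 other genes of gut stem cells, their daughters and their signals was described in the same way. These genes were chosen with earlier results of these data known. Their shares and scores, in all and by role, therefore only describe the chosen genes, and a difference from all genes was not tested. Of these, 37 (77.1%) had a summit of the thresholded list, against 64.6% of all genes, and the median of their strongest scores was 309, beside 246 over all genes with a summit. The nearest start to the strongest summit was the gene's own at 21 of the 37, with a tie counted as own. An octamer lay within 100 bp of that summit at 6 of the 37, beside 5.23% of all summits of the list. These are unlike sets, since only the strongest summit of each gene was taken here. The share at the strongest summits of all genes was not computed.

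A summit lay in the territory of 12 of 15 progenitor and Notch genes, against 64.6% of all genes, with a median strongest score of 292. The gene's own start was the nearest to that summit at 7 of the 12. The highest were cnc, the fly Nrf2 gene, at 1087 (484 in replicate 1 and 608 in replicate 3), Myc at 947 (533 in replicate 1 and 419 in replicate 3) and the forkhead gene fkh at 844 (273 in replicate 1 and 571 in replicate 3). The Notch pathway genes Dl, N and Su(H) had no summit, while the Notch target genes E(spl)m8-HLH and E(spl)mbeta-HLH had strongest scores of 188 and 142, each with another gene's start nearer.

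Of the 9 enteroendocrine genes, 4 had a summit, against 64.6% of all genes, with a median strongest score of 150. The gene's own start was the nearest at 1 of the 4. The genes sc, ase, NPF, AstC and dimm had none, like pros. Piezo, a mechanosensitive channel gene, had the highest score at 420, 235 bp upstream of a start (160 in replicate 1 and 264 in replicate 3). The peptide hormone genes Dh31 and Tk scored 171 and 129, each with another gene's start nearer to the summit.

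Summits were present at 10 of 11 enterocyte and region genes, against 64.6% of all genes, with a median strongest score of 361. The nearest start was the gene's own at 4 of the 10. The gut gene mex1 had 954 and the septate junction gene Ssk 805, though CG13454 and CG42674 have the nearer starts. The GATA factor genes GATAe and srp are neighbours and share a summit with a score of 585, nearest to GATAe, which counts for both. The homeotic gene lab had none.

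Genes of proliferation signals had a summit in 11 of 13 cases, against 64.6% of all genes, with a median strongest score of 567. At 9 of the 11 the gene's own start was the nearest, counting Krn, where a start of Ndfip is equally near at 648 bp. The epidermal growth factor receptor ligand gene spi had 1406 (715 in replicate 1 and 705 in replicate 3), the JAK/STAT inhibitor gene Socs36E 1316 (676 in replicate 1 and 646 in replicate 3) and pnt, the ETS factor gene of the same receptor's pathway, 973 (535 in replicate 1 and 453 in replicate 3). An octamer lay within 100 bp of the strongest summit at 3 of the 11 genes, spi and pnt among them and Socs36E not. Over all summits of the list, strong or weak, the share was 5.23%, and no test was made. The cytokine genes upd1 and upd2 had none. The highest score at the 7 genes, 266 at nub, was below the median strongest score of 3 of these 4 roles, counted over the genes with a summit. Both sets were chosen with earlier results of these data known, so this only describes the chosen genes.

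**Figure D3:**
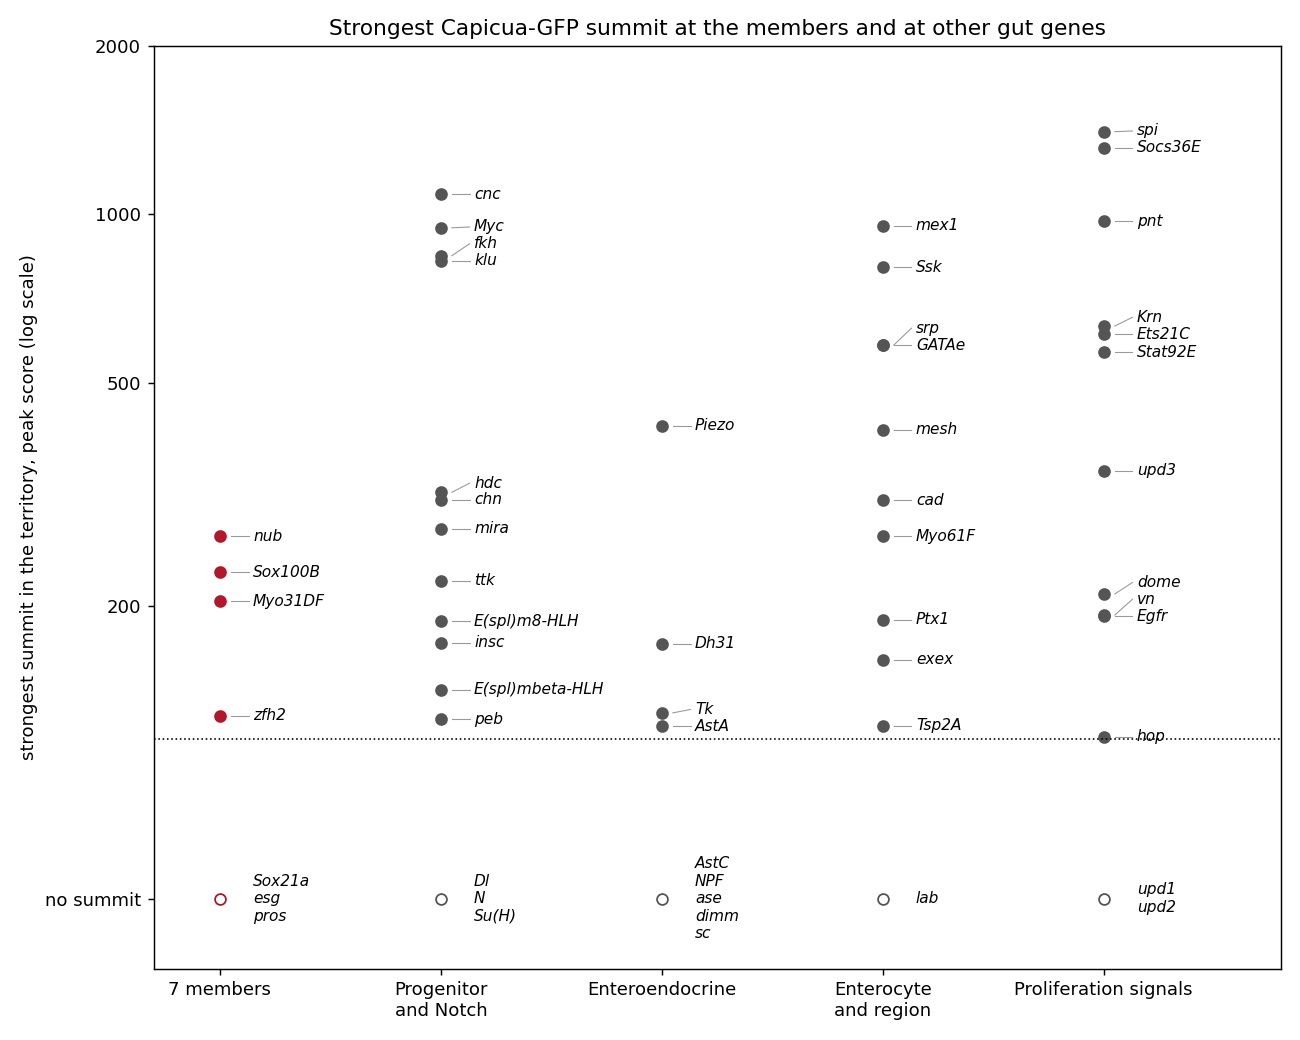
The vertical axis is the authors' score, on a log scale, of the strongest summit of the thresholded list in each gene's territory, for the 7 genes in red and for 48 other gut genes by role in grey. Open circles collect the genes with no summit, and the dotted line is the list's lowest score. The 4 red points lie between 127 and 266, while each grey column reaches 420 or more. Both sets were chosen with earlier results of these data known.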

How the data were processed

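The authors deposited ChIP-seq peak lists: 1 relaxed list per replicate, 1 relaxed list from pooled replicates, and the entries that passed an irreproducible discovery rate threshold. Alignments of the replicates and of a control went into each, per the text list deposited with the files. Aligner, caller and settings: not given in the sources used here. A score deposited for each peak is the authors' own, of no stated scale. The lists on the older build dm3 were not used here.

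Start positions were made 1-based, and a summit is the start plus the offset the file gives. Genes came from Ensembl release 115 and sequence from RefSeq Release 6, both dm6. A replicate peak was matched where it overlapped by 1 bp or more, taking the strongest. Motifs were sought on both strands. The 7 genes and the 48 others were chosen with earlier results of these data known. Named were all 7, up to 3 genes with the strongest summit in each role, and genes whose start is nearer to a summit of the 7. Genes with no summit, and genes nearest to summits outside a territory, were named after their values were seen. Dl and hdc were matched by gene identifier, the others by symbol. The procedure was tested on simulated peaks. No p-values were computed. Python 3.11.15, numpy 2.4.6, pandas 2.3.3 and matplotlib 3.10.9 were used.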

Additional observations from a re-analysis of the deposited data

How the results depend on the processing

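The count of 11 summits at the 7 genes became 6 in gene bodies only, 7 with 5 kb in place of 10 kb, 1 within 1 kb of a start, 7 where the gene's own start had to be the nearest, 3 in the stronger 50% of the list and 49 in the pooled relaxed list. The count of 4 genes with a summit became 2 in gene bodies only, 1 within 1 kb and 7 in the pooled relaxed list. It was 3 with 5 kb, by nearest start and in the stronger 50% of the list. The share of all genes with a summit, 64.58%, became 18.63% in gene bodies only, 30.53% within 1 kb and 26.78% by nearest start. It was 51.24% with 5 kb and 46.59% in the stronger 50%. The count of 37 gut genes became 26 in gene bodies only, 33 with 5 kb and 23 within 1 kb. It was 28 by nearest start, 28 in the stronger 50% and 47 in the pooled relaxed list. With 4 octamers in place of 2, 2 of the 11 summits had a match in place of 0, against 8.10% of all summits in place of 5.23%. Leaving out replicate 1 or replicate 3 gave 11 summits at 4 genes in each case, shares of 64.35% and 64.70%, 36 and 39 gut genes, and 0 octamers. For single genes, 21 counts changed by more than 1.5 times. All of them came with another territory, the nearest-start rule, the stronger part of the list or the pooled relaxed list. By nearest start, Sox100B went from 1 summit to 0 and Myo31DF from 5 to 2. A reciprocal overlap of 50% left no match for the Sox100B summit and for the summits at 10502387 and, in replicate 1, 10513889 at Myo31DF.

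The lists hold no read counts, so depth and counting error are unknown, and a gene without a summit had none past the threshold, which does not show that Capicua is absent there. Scores rank peaks and do not measure occupancy in midgut cells. Assignment by distance does not show which gene a summit acts on.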
